A study of Mus musculus with 3 samples.

Results

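The genes described here are the mouse relatives of PRAME, a leucine-rich repeat protein first known as a tumour antigen, whose names on the array start with Pramel or Pramef. They were chosen by name among the non-control probes of 9 one-colour arrays, and 10 genes of the 34797 gene names on the array were found, each with 1 probe. The arrays measured total RNA of male mouse embryonic stem (ES) cells of the EB5 line, derived from E14tg2a, in which Nr0b1 (also known as Dax1) can be deleted. All cells carried a floxed exon 2 of Nr0b1 or the allele left by its deletion, MerCreMer recombinase under the CAG promoter on a piggyBac vector, and Egfp. The first group held Nr0b1 fl-/Y ES cells without 4-hydroxy tamoxifen (−Tx; Dax1 flox/Y in the labels). The second group held Nr0b1 fl-/Y ES cells 4 days after Tx (+Tx; Dax1 flox/Y + Cre 4days). The third group held Nr0b1 KO/Y ES cells, in which the deletion had been kept for several passages (KO/Y; Dax1 KO/Y). Each group had 3 arrays, which the study describes as biological triplicates. It does not say which clone each array came from, and its cells were grown with or without mouse embryonic fibroblast feeders. The p-values therefore measure the spread between these 3 arrays.

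Prame family genes are expanded in the mouse and lie mostly in a large cluster on chromosome 4, with smaller groups on chromosomes 2, 5, 12 and X. Their transcripts are known mainly from germ cells, oocytes and cleavage stage embryos. Pramel7 and Pramel6 are known from the inner cell mass and from ES cells, where Pramel7 acts downstream of LIF and Stat3. Pramel7 also joins a Cullin2 ubiquitin ligase that lowers Uhrf1, the protein that brings the maintenance DNA methyltransferase to replicating DNA. Human PRAME is known as a repressor of retinoic acid receptor signalling.

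Signals are given as Agilent processed intensities per array in arbitrary units. Fold changes and tests were made on log2 signals set relative to the 75th percentile of their own array, so that 0 is this percentile. A gene was called at over 2-fold with an adjusted p under 0.05 in limma across 22335 genes. The number of probes well above background on an array ranged from 28815 to 32511. Nr0b1 itself read 5718, 7119 and 6535 on the −Tx arrays, 64.6, 56.7 and 88.6 on the +Tx arrays, and 6.03, 4.71 and 5.17 on the KO/Y arrays, where it was not well above background. All 8 ES cell markers were well above background on every array, with a summed scaled signal of 718 to 755 on the −Tx, 667 to 715 on the +Tx and 548 to 667 on the KO/Y arrays. All 12 fibroblast markers were as well, and their summed scaled signal was 496 to 523 on the −Tx, 612 to 642 on the +Tx and 711 to 741 on the KO/Y arrays. Of 10 tested markers of primitive and visceral endoderm, 9 were called higher in KO/Y than in −Tx ES cells. In +Tx over −Tx ES cells none was called higher and 1, Foxa2, was called lower. Of 11 tested germ cell markers, none was called in +Tx over −Tx, and 4 were called higher and 1 lower in KO/Y over −Tx ES cells. Over all genes tested, 4.72% were called higher and 2.83% lower in KO/Y over −Tx, and 1.74% and 0.752% in +Tx over −Tx ES cells. Nobox and Figla, known from oocytes, were not well above background on any array. The other markers of this list, Zp3 and Gdf9 among them, were on at least 1 array of every group, except Sycp2 in +Tx and KO/Y.

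The Pramel and Pramef genes did not move together. Pramef17 was already higher at 4 days and higher again in KO/Y ES cells. Pramel7 and Pramel6 reached the limits for a call only in KO/Y ES cells, and Pramel7 had a change at 4 days just under the 2-fold limit. Pramef8 and Pramef12 had bright probes and were not called in any comparison. The other 5 genes, Pramel, Pramel1, Pramel3, Pramel4 and Pramel5, were not well above background on any of the 9 arrays. Of the 5 genes tested, 1 was called higher in +Tx than in −Tx ES cells, where 1.74% of all genes tested were called higher and 0.752% lower. In KO/Y over −Tx ES cells, 3 were called higher, against 4.72% of all genes higher and 2.83% lower. In KO/Y over +Tx ES cells the same 3 genes were called higher, against 2.37% of all genes higher and 1.03% lower. None of the 5 was called lower in any comparison. Pramef17 passed the filter on dim probes only through the groups in which it was high, so these counts describe the genes and are no test of the family. In bulk RNA such as this, more cells with a transcript and more transcript per cell cannot be told apart.

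Pramef17, now named Pramel14 in RefSeq, lies in the chromosome 4 cluster, and its probe is at chr4:143581025-143581084 on mm9 (minus strand). Its signal was 13.7, 18.6 and 17.4 on the −Tx arrays, none of them well above background. It was 62.7, 42.8 and 72.1 on the +Tx arrays. It was 305, 198 and 214 on the KO/Y arrays. The 3 groups did not overlap. The signal in +Tx ES cells was at least 2.55-fold higher than in −Tx ES cells (log2 fold change 1.71, standard error 0.125, adjusted p = 4.86e-05 from limma). A bound is given because −Tx had no array above background, and it sets the brighter group against the dimmest probe that was well above background on each array. In KO/Y ES cells it was at least 10.7-fold higher than in −Tx ES cells (log2 fold change 3.78, adjusted p = 1.26e-07 from limma). From 4 days to KO/Y it rose 4.19-fold (log2 fold change 2.07, adjusted p = 1.63e-05 from limma). With a normexp background correction and an offset of 50, which is larger than its −Tx signals, the log2 fold change at 4 days was 0.40 and the call was lost.

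Pramel7 has its probe at chr2:87329267-87329326 on mm9 (minus strand). Its signal was 35.8, 41.4 and 34.3 on the −Tx arrays, 69.6, 57.0 and 98.9 on the +Tx arrays, and 524, 430 and 380 on the KO/Y arrays, all well above background. The 3 groups did not overlap, and the largest step was from 4 days to KO/Y. At 4 days the signal was 1.84-fold that of −Tx ES cells (log2 fold change 0.88, standard error 0.116, adjusted p = 0.00112 from limma), which passed the p limit and fell short of the 2-fold limit. It therefore lies near the limit between the genes called at 4 days and those called only later. With the normexp correction this log2 fold change was 0.32. In KO/Y ES cells Pramel7 was 11.4-fold higher than in −Tx ES cells (log2 fold change 3.52, adjusted p = 1.23e-07 from limma) and 6.22-fold higher than in +Tx ES cells (log2 fold change 2.64, adjusted p = 4.29e-06).

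Pramel6, the neighbour of Pramel7 on chromosome 2, has its probe at chr2:87350964-87351022 on mm9 (plus strand). Its signal was 35.7, 64.7 and 37.2 on the −Tx arrays and 32.2, 32.6 and 54.6 on the +Tx arrays, where 2 of the 3 arrays were well above background. It was 433, 251 and 272 on the KO/Y arrays. The −Tx and +Tx arrays overlapped, and the KO/Y arrays lay above all of them. At 4 days the log2 fold change was -0.30 (standard error 0.209, adjusted p = 0.328 from limma). In KO/Y ES cells Pramel6 rose 6.74-fold over −Tx (log2 fold change 2.75, adjusted p = 1.83e-05 from limma). Over +Tx ES cells the rise was 8.29-fold (log2 fold change 3.05, adjusted p = 3.23e-05 from limma). The summed scaled signal of the primitive and visceral endoderm markers was also highest on the KO/Y arrays, with 2.2 to 2.5 on the −Tx, 2.97 to 3.43 on the +Tx and 6.66 to 8.64 on the KO/Y arrays. That of the trophectoderm markers was 13.6 to 13.9 on the −Tx, 8.07 to 8.42 on the +Tx and 22.2 to 23.6 on the KO/Y arrays. Of 9 trophectoderm markers tested, 4 (Cdx2, Hand1, Krt8 and Krt18) were called higher and 1 (Tfap2c) lower in KO/Y over −Tx ES cells. Over all genes these shares were 4.72% and 2.83%. At 4 days Hand1 was called higher and Tfap2c and Krt7 lower, although no −Tx or +Tx array showed Krt7 well above background. Hand1 was not well above background on any −Tx array either, which limits both of its calls over −Tx. No array showed Elf5 well above background. The part of endoderm or trophectoderm cells in the rise of Pramel6 was not tested.

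**Figure D1:**
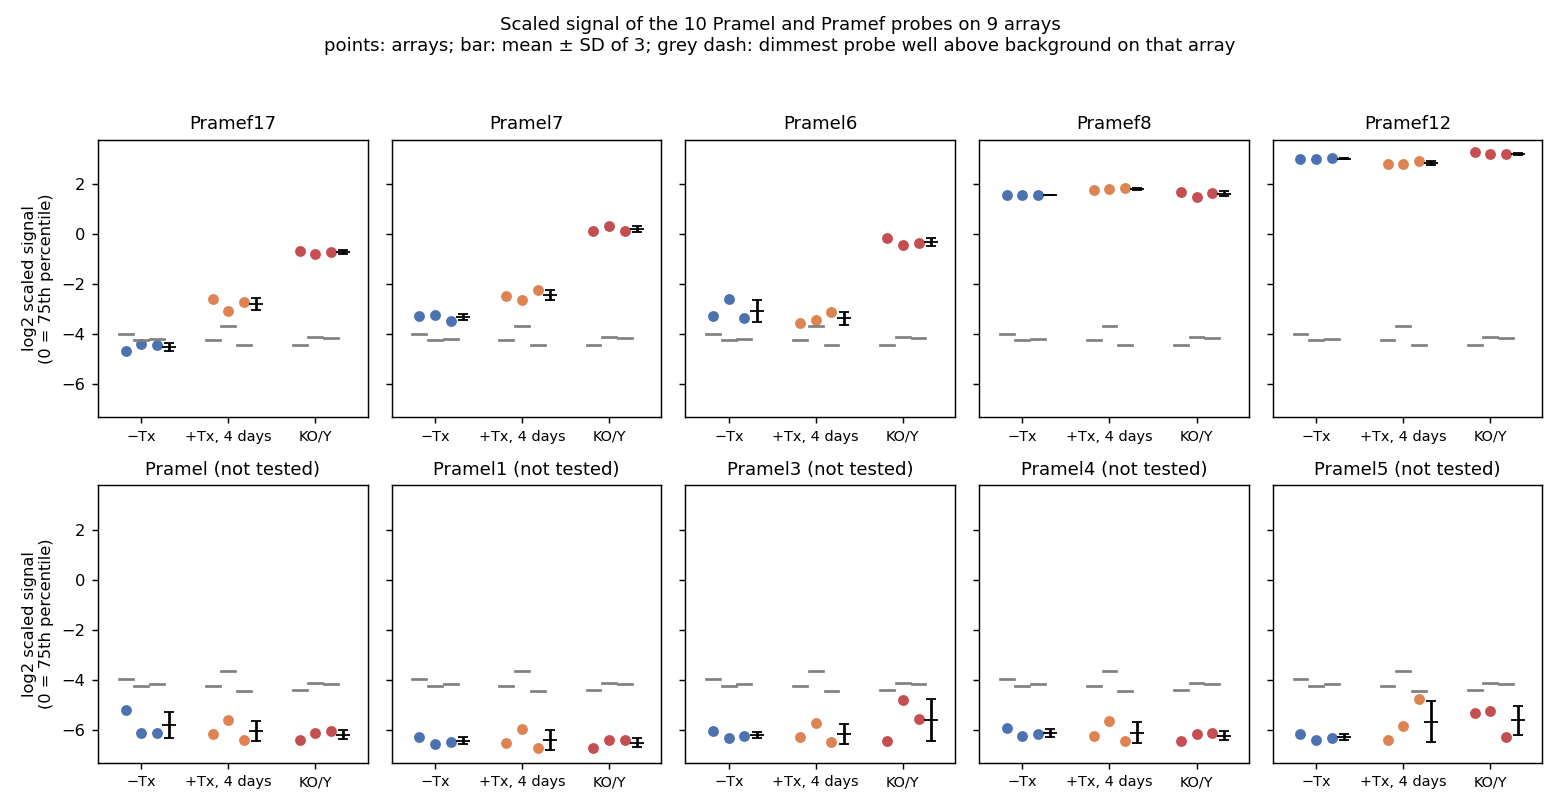
Log2 signal of each of the 10 Pramel and Pramef probes, with 0 at the 75th percentile of the array, on 3 arrays each of −Tx, +Tx and KO/Y ES cells. Points are arrays, black bars are the mean ± SD of 3 arrays, and grey dashes mark the dimmest probe well above background on that array. Pramef17 and Pramel7 climb in steps, Pramel6 is high only on the KO/Y arrays, and the lower row stays under the grey dashes.

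The 9 arrays lay on 2 slides, with −Tx and +Tx array 1 on one and the other +Tx arrays and KO/Y on the other, so that −Tx and KO/Y shared no slide. On the first slide, with 3 arrays against 1, the log2 fold change of +Tx over −Tx was 1.89 for Pramef17 (adjusted p = 0.0201 from limma), 0.87 for Pramel7 (adjusted p = 0.0424) and -0.49 for Pramel6 (adjusted p = 0.4). On the second slide, with 3 arrays against 2, that of KO/Y over +Tx was 2.16 for Pramef17 (adjusted p = 0.000777), 2.63 for Pramel7 (adjusted p = 0.000658) and 2.95 for Pramel6 (adjusted p = 0.000639). With slide as a block, that of KO/Y over −Tx was 4.05, 3.50 and 2.46 for the same 3 genes (adjusted p = 2.88e-05, 7.61e-05 and 0.00462). With the normexp correction the values for KO/Y over −Tx were smaller, at 1.65, 2.18 and 1.60, and all 3 genes were still called.

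The changes of the 3 genes were set against each other over arrays in 5 comparisons of gene pairs, which leave out Pramef17 over −Tx ES cells, where its fold is only a bound. At 4 days the log2 fold change of Pramel7 was 1.18 above that of Pramel6, and in KO/Y over −Tx ES cells it was 0.763 above. From 4 days to KO/Y the log2 fold change of Pramel7 fell 0.41 short of that of Pramel6. That of Pramef17 in the same comparison was 0.98 below that of Pramel6 and 0.57 below that of Pramel7. Each of the 5 differences had p = 0.1 in a two-sided exact permutation test of 3 arrays against 3, the smallest p that this design allows, before and after adjustment. The 3 genes are those called on these same arrays. The test took no account of slide, so in KO/Y over −Tx it cannot tell group from slide.

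Pramef8 and Pramef12 (now Pramel12 and Pramel13 in RefSeq) also lie in the chromosome 4 cluster, with probes at chr4:143010931-143010990 (plus strand) and chr4:143981583-143981642 (minus strand) on mm9. Pramef8 read 1028, 1159 and 1110 on the −Tx, 1290, 1243 and 1670 on the +Tx and 1553, 965 and 1093 on the KO/Y arrays. Its log2 fold change was 0.24 at 4 days (adjusted p = 0.0318 from limma) and 0.05 in KO/Y over −Tx ES cells (adjusted p = 0.608). Pramef12, which is known from male germ cells, read 2788, 3124 and 3127 on the −Tx, 2630, 2487 and 3567 on the +Tx and 4632, 3121 and 3165 on the KO/Y arrays. Its log2 fold change was -0.18 at 4 days (adjusted p = 0.0661 from limma) and 0.19 in KO/Y over −Tx ES cells (adjusted p = 0.031). Both genes thus stayed within 1.3-fold in every comparison. The signal of the 5 genes not above background ranged from 4.06 to 17.2 over the 9 arrays, so the arrays give only an upper bound for them.

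Pramel7 and Pramef17, which share a stepwise course, and Pramel6, which lacks it, were chosen by their values. Their regions just upstream of the annotated starts were set side by side. RefSeq (GRCm38.p6) gave such a region for 9 of the 10 genes. The 250 bases before the start of Pramel7 (chr2:87492419-87492668, minus strand) and of Pramef17 (chr4:143994370-143994619, minus strand) were identical at 204 positions, or 81.6%, although the genes lie on different chromosomes. Gm13128 (now Pramel30; chr4:144329999-144330248, plus strand), a relative singled out after its values were seen, was 97.6% identical to Pramef17 and 80.4% to Pramel7. Pramel6 (chr2:87506315-87506564, plus strand), which lies beside Pramel7, was 54.8% identical to it and 55.2% to Pramef17. Over all 528 pairs of 33 promoters of the family and its relatives, identity ranged from 51.2% to 98.4% with a median of 59.6%. The sequences run 5′ to 3′ up to the base before the start, and capitals mark stretches of at least 10 bases present in Pramel7, Pramef17 and Gm13128 alike.
Pramel7: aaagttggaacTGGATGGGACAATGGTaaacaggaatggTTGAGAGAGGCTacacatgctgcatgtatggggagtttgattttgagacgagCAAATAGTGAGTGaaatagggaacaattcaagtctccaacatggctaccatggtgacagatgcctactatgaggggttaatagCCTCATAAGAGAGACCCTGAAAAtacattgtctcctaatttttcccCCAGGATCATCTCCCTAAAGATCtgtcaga
Pramef17: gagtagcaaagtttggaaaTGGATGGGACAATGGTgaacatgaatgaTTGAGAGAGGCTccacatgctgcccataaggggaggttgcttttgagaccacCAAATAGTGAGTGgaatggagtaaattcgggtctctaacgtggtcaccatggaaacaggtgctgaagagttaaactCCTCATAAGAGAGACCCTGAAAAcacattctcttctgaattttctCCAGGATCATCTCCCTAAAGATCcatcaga
Gm13128: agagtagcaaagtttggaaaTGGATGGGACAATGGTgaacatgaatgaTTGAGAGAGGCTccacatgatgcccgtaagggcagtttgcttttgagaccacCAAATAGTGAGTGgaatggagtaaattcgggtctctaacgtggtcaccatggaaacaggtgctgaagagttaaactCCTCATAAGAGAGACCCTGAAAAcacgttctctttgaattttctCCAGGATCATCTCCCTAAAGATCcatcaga
Pramel6: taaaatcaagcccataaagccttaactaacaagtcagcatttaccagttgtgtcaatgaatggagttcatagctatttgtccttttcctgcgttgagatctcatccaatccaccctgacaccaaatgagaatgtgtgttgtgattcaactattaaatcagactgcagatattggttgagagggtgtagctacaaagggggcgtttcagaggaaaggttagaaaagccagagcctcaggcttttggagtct
The capitals cover 87 bases in each of the 3 related regions and none in Pramel6. The longest shared stretches, 2 of 23 bases, occurred in 3 of the 32851 promoters of the table, those of these 3 genes.

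Gm13128 was not well above background on any −Tx or +Tx array, where it read 6.97, 5.31 and 5.47, and 7.53, 7.25 and 17.5. It read 56.1, 47.1 and 50.4 on the KO/Y arrays. Its signal in KO/Y ES cells was at least 2.32-fold that of −Tx (log2 fold change 3.06, adjusted p = 2.71e-05 from limma). At 4 days its log2 fold change was 0.64 (adjusted p = 0.0942 from limma) and it was not called. Its second probe was well above background on 1 KO/Y array and on no other. Gm13109 and A430089I19Rik, which were called higher at 4 days, had upstream regions 62.8% and 56.4% identical to that of Pramef17. Whether likeness of these regions goes with the course of a gene was not tested. A motif search on both strands found neither AAGGTCA, a nuclear receptor half-site with 1 added base, nor TTCNNNGAA, a Stat site, in any of the 33 promoters. These letters were present in 4.08% and 7.02% of all 32851 promoters. TATAAA, the letters of the TATA box, was searched in the same way. It was present in 10 of the 33 and in 12.4% of all, and not in Pramel6, Pramel7 or Pramef17. The hits of A430089I19Rik, BC061212, Gm13084, Oog3, Oog2, Gm13103 and BC080695 lay 28 to 38 bases before the start. Those of Gm13089, Gm13119 and Pramel lay 67, 68 and 242 bases before it, that of Pramel on the minus strand. The search counted letters at any position. None of the 10 probes shared a run of 20 bases or more with a probe of another gene name on the array. Whether a probe also takes up transcripts of near-identical genes was not tested.

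Under other names, 26 relatives were on the array, of which 15 were tested. Of these 15, 10 were called higher in +Tx than in −Tx ES cells, 13 in KO/Y than in −Tx and 10 in KO/Y than in +Tx, and none lower. These counts stand beside the shares of all genes called higher, 1.74%, 4.72% and 2.37%. With the normexp correction 6 of the 10, 9 of the 13 and 6 of the 10 calls were kept. In a test against a fold of 2 these were 7, 13 and 3. With the mean of a gene's probes in place of the brightest, 9, 12 and 10 were kept, and the calls of Oog2 were lost. Several of these relatives, like Pramef17, passed the filter only through groups in which they were high. B020004J07Rik, D5Ertd577e, Gm13078, Gm13083, Gm13109 and Gm13128 were not well above background on any −Tx array, and E330014E10Rik and Gm13119 on only 1. These counts therefore describe the genes and are no test of the relatives as a set. With a filter on all 9 arrays, 6, 6 and 4 of the called relatives had a value, and 5, 5 and 3 calls were kept. Gm13109 (now Pramel16), the next gene to Pramef17, was not above background in −Tx ES cells, where it read 4.58, 4.19 and 4.47. It read 54.1, 42.2 and 75.5 on the +Tx and 225, 163 and 121 on the KO/Y arrays. It was at least 2.45-fold higher at 4 days (adjusted p = 1.51e-06 from limma), and KO/Y ES cells exceeded −Tx by at least 7.48-fold (adjusted p = 6.61e-08).

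On chromosome 5, A430089I19Rik (now Pramel39) read 61.2, 56.3 and 52.7 on the −Tx, 606, 530 and 826 on the +Tx and 2225, 1609 and 1454 on the KO/Y arrays. It rose 10.6-fold at 4 days (adjusted p = 2.04e-07 from limma) and 29.5-fold in KO/Y ES cells (adjusted p = 1.15e-08), and its second probe moved alike (log2 fold changes 3.23 and 4.76). BC061212 (now Pramel37), whose upstream region was 98.4% identical to that of A430089I19Rik, rose 7.61-fold at 4 days (adjusted p = 7.72e-07 from limma) and 23.8-fold in KO/Y ES cells (adjusted p = 2.37e-08). Whether the probes of these genes tell them apart was not tested. D5Ertd577e (now Pramel48), named after its values were seen, was not well above background on any −Tx or +Tx array. In KO/Y ES cells it was at least 1.56-fold that of −Tx (log2 fold change 2.69, adjusted p = 1.11e-05 from limma). This rise rests on 1 of its 4 probes, since the others were not well above background on any array.

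E330014E10Rik rose 12.4-fold at 4 days by its brightest probe (log2 fold change 3.63, adjusted p = 1.13e-06 from limma) and 30.2-fold in KO/Y ES cells. That probe was well above background on 1 −Tx array. In −Tx ES cells its mean log2 signal was -4.16, below the -1.93 of another probe of the gene. The other 2 probes had log2 fold changes of -0.25 and -0.21 at 4 days (adjusted p = 0.48 and 0.727 from limma). In KO/Y over −Tx ES cells theirs were 0.51 and 0.87 (adjusted p = 0.115 and 0.0952 from limma). The probes of this gene thus disagree. On chromosome 4, 7 of 10 relatives tested were called higher at 4 days and 9 in KO/Y over −Tx. On chromosome 5, 2 of 4 were called higher at 4 days and 3 in KO/Y over −Tx. Over all genes tested these shares were 1.74% and 4.72%. Since several relatives passed the filter only through groups in which they were high, the counts are no test of either chromosome. With the normexp correction the calls of B020004J07Rik, Gm13083, Gm13109 and Oog2 at 4 days were lost, and those of D5Ertd577e, Gm13078, Gm13083 and Gm13128 in KO/Y over −Tx ES cells. Oog3, Oog4 and Prame, relatives known from oocytes or testis, were among the 11 relatives that did not pass the filter. Oog2 passed it, and its brightest probe was called higher in +Tx (2.13-fold) and in KO/Y (3.74-fold) than in −Tx ES cells. The other probe of Oog2 barely moved in these comparisons, by -0.13 and -0.02 on the log2 scale.

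**Figure D2:**
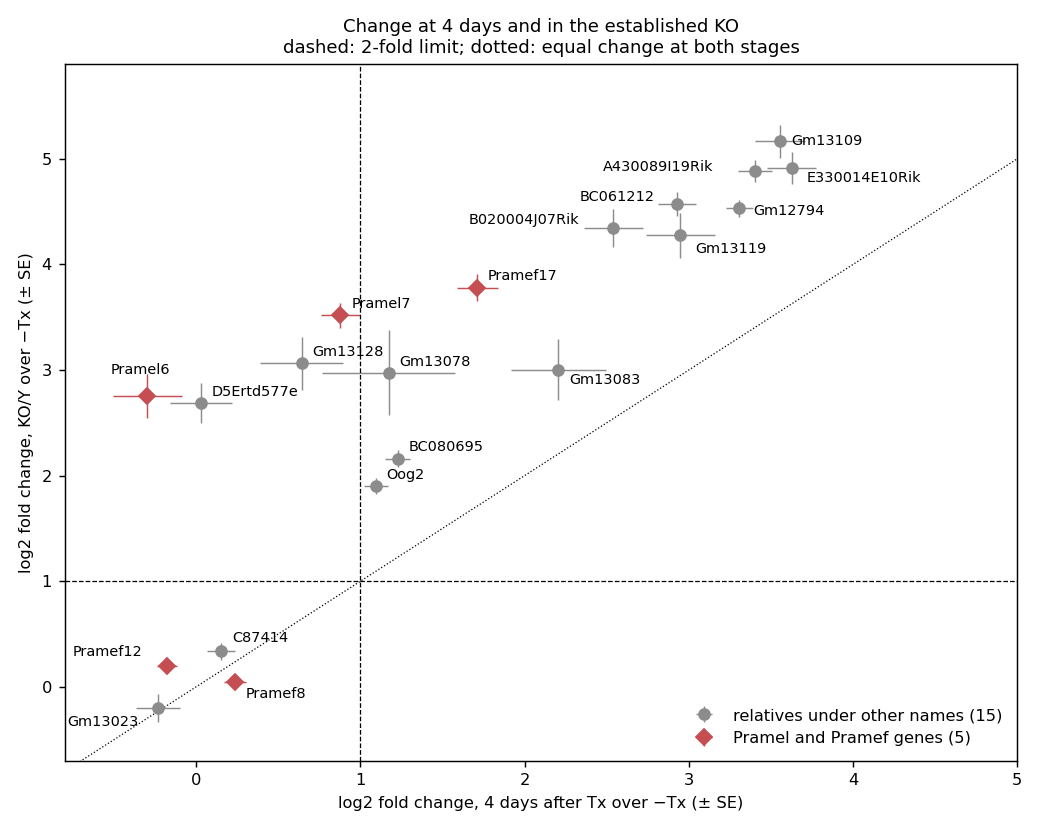
Log2 fold change of +Tx over −Tx (x axis) and of KO/Y over −Tx (y axis) for the 5 Pramel and Pramef genes tested (red diamonds) and 15 relatives under other names (grey circles), each ± its standard error. The x and y values share the −Tx arrays. Pramel6 lies left of the dashed 2-fold line at 4 days and above it in KO/Y, Pramel7 lies just left of the line, and Pramef17 lies beyond both lines.

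**Figure D3:**
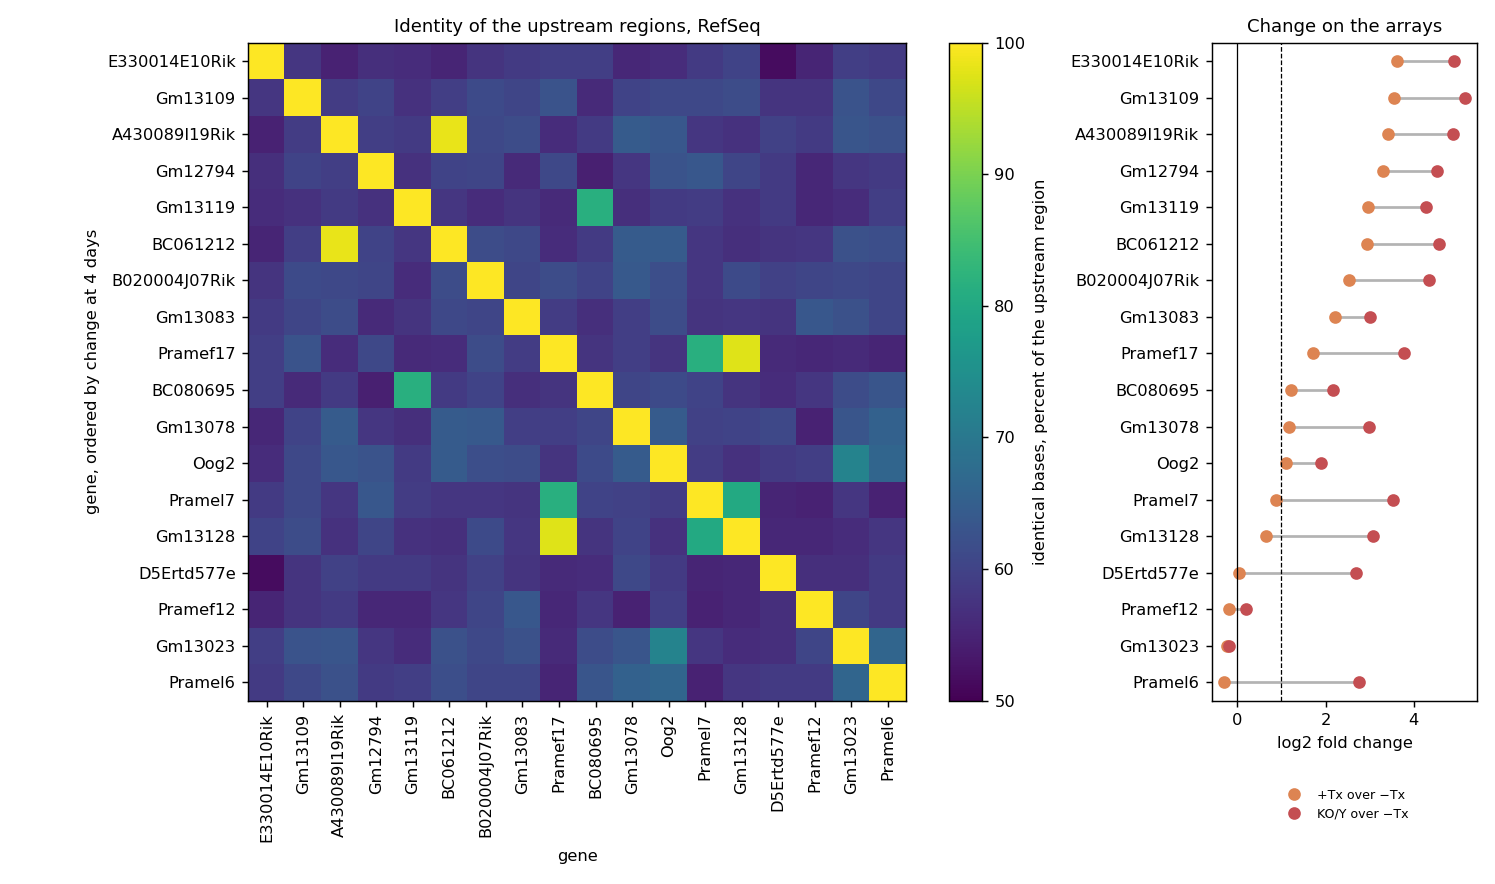
Left, percent of identical bases between the 250 bases upstream of 18 tested genes with a RefSeq promoter, ordered by their change at 4 days. Right, the log2 fold change of each gene in +Tx and in KO/Y over −Tx ES cells, with a dashed line at 2-fold. Pramef17, Pramel7 and Gm13128 form 1 group of related regions, A430089I19Rik and BC061212 another and BC080695 and Gm13119 (81.6% identical) a further one. Gm13023 and Oog2 follow at 72.4%, and Pramel6 stands in none of these groups.

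The genes with the closest pattern over the 9 arrays differed between the members. Likeness was measured as the root mean square difference of log2 signals centred on the −Tx mean, against 13821 genes with a current symbol outside the family. For Pramef17 they were Gm11544 (0.162), Cidea (0.222), which codes for a lipid droplet protein, and 0610040J01Rik (0.227). For Pramel7 they were Trim43b (0.321), of a gene group known from cleavage stage embryos, Fbp2 (0.359), a fructose bisphosphatase, and Tuba3b (0.363), a tubulin known from testis. Trim43b had log2 fold changes of 1.18 at 4 days and 3.15 in KO/Y over −Tx ES cells. For Pramel6 they were 3830417A13Rik (0.273), Cubn (0.277), the cubilin receptor of visceral endoderm, and Pth1r (0.361), a parathyroid hormone receptor of parietal endoderm. Cubn had log2 fold changes of -0.24 at 4 days and 2.89 in KO/Y over −Tx ES cells, beside -0.30 and 2.75 for Pramel6. All these genes were chosen for likeness on the same 9 arrays, so their like fold changes follow from the choice.

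**Figure D4:**
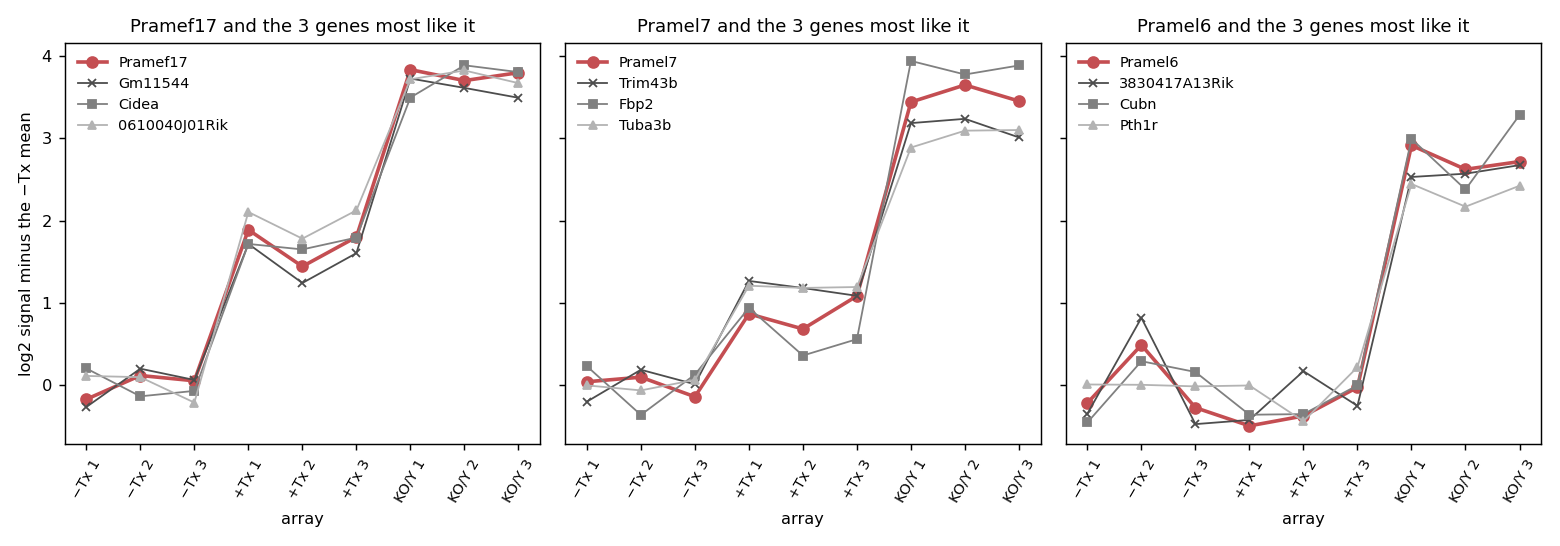
Log2 signal minus the −Tx mean on each of the 9 arrays for Pramef17, Pramel7 and Pramel6 (red) and the 3 genes most like each (grey). Pramef17 and Pramel7 and the genes like them lie higher on the +Tx arrays than on the −Tx arrays and higher again on the KO/Y arrays, whereas Pramel6 and the genes like it are near 0 until KO/Y. The grey genes were chosen for their likeness on these arrays, so the shared course follows from the choice.

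The genes beside the members in the RefSeq gene order were then listed. Pramel6 and Pramel7 are next to each other and lie among olfactory receptor genes, of which Olfr1124, Olfr1126, Olfr153 and Olfr1128 were not well above background on any array. Pramef17 lies between Gm13109, which was called higher at 4 days, and Pramel4, which was not above background on any array. Pramef12 lies 2 genes from Gm13119 (now Pramel31), which had log2 fold changes of 2.95 at 4 days (adjusted p = 4.45e-05 from limma) and 4.28 in KO/Y over −Tx ES cells. Pramef8 lies 2 genes from Gm13043, with log2 fold changes of 3.02 (adjusted p = 2.02e-07 from limma) and 4.39. In the cluster, Pramef17, which was called, thus stood beside a gene too dim to be tested. Pramef12 and Pramef8, which were tested and not called, lay 2 genes from called ones. The genes between them, Gm13125 and Oog4, were not tested.

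Genes of the pathways that the family is known from were then counted. Of all genes tested, 1.74% were called higher and 0.752% lower at 4 days, and 4.72% and 2.83% in KO/Y over −Tx ES cells. With none or 1 called at 4 days, these short lists lie near the shares of all genes. Of 18 tested partners of Cullin ligases and Uhrf1, none was called in +Tx over −Tx ES cells. In KO/Y over −Tx, 1 was called lower, Tet1, an enzyme that oxidises methylated cytosine (log2 fold change -1.18, adjusted p = 8.17e-06 from limma), and the median of the list was -0.08. Of 16 genes of LIF and Stat3, 1 was called lower at 4 days and 2 in KO/Y over −Tx ES cells. Tfcp2l1, a Stat3 target, fell by 1.10 on the log2 scale at 4 days (adjusted p = 6.67e-06 from limma). Gbx2, another Stat3 target, fell by 2.46 in KO/Y over −Tx ES cells (adjusted p = 2.84e-07 from limma).

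Of 18 tested genes of the retinoic acid receptor pathway, none was called at 4 days. In KO/Y over −Tx ES cells 3 were called higher, beside 4.72% of all genes. Stra8, a retinoic acid responsive gene of germ cells, rose 3.03-fold (adjusted p = 1.91e-05 from limma). Cyp26a1, which breaks down retinoic acid, was well above background on 1 of the 3 −Tx arrays and had a log2 fold change of 2.51 (adjusted p = 0.00284 from limma). Stra6, a retinol receptor, was not well above background on any −Tx array and was at least 2.77-fold higher in KO/Y ES cells (adjusted p = 0.00424 from limma). The calls of Cyp26a1 and Stra6 were lost with slide as a block, where the log2 fold changes were 2.05 and 0.43, and with normexp, where they were 0.97 and 0.55. Of 22 tested genes of the 2-cell embryo, 17 were called higher at 4 days, beside 1.74% of all genes. In KO/Y over −Tx ES cells 18 were called higher, beside 4.72%. Among the 2-cell genes, Tcstv1 rose 11.6-fold at 4 days (adjusted p = 1.42e-07 from limma) and 33.2-fold in KO/Y ES cells (adjusted p = 7.99e-09). Of 22 pluripotency genes, 2 were called lower at 4 days, beside 0.752% of all genes. These were Tfcp2l1 and Dppa3, a maternal factor (log2 fold change -1.64, adjusted p = 6.89e-06 from limma). In KO/Y over −Tx ES cells 1 of the 22, Dppa2, was called higher (log2 fold change 1.28, adjusted p = 6.4e-06 from limma) and 1, Tfcp2l1, lower. Over all genes these shares were 4.72% and 2.83%.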

How the data were processed

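RNA of 3 groups of ES cells was measured on 9 one-colour Agilent arrays, 3 per group. The authors made the deposited intensity values with Agilent Feature Extraction 10.7.3.1 (per the labels and file headers): each is the processed Cy3 signal of a spot after background subtraction. The authors also deposited a table with 1 linear signal value for each group and feature, which served as an alternative without a test.

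In R 4.3.3, log2 intensities minus the 75th percentile of each array were taken, outlier spots left out, spots of a probe averaged, and probes kept that stood well above background on all 3 arrays of any group. The brightest probe stood for a gene, and 22335 genes were tested in 1 fit of all 9 arrays with limma 3.58.1 (Benjamini-Hochberg adjustment). The count of arrays limits the precision. The fit was tested on simulated data. The members, lists and tests were chosen with earlier results of these data known. Every Pramel or Pramef gene that passed the filter is named, and from each list up to 4 called genes with the largest change. Relatives were collected by hand and through RefSeq names, and of the 33 promoters found, 9 belong to the family and 24 to relatives. Promoters were aligned globally with Biopython 1.88. Array coordinates are on mm9 and promoter coordinates on GRCm38.p6. The arrays of a group carry no replicate number here and were numbered by slide position. Alternatives are given in the closing section.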

Additional observations from a re-analysis of the deposited data

How the results depend on the processing

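The calls of Pramel7, Pramel6 and Pramef17 in KO/Y over −Tx and over +Tx ES cells, and that of Pramef17 at 4 days, were kept when each array was left out in turn, with quantile normalization, with slide as a block, with outlier spots kept, with no filter on dim probes, with an intensity trend, with only the 6 arrays compared, and in a test against a fold of 2. With normexp 0 family genes were called higher at 4 days. With a filter that asked for a signal well above background on all 9 arrays, which leaves out Pramef17 and Pramel6, 0, 1 and 1 were called higher in the 3 comparisons (+Tx over −Tx, KO/Y over −Tx and KO/Y over +Tx). With no fold limit 3 were called higher at 4 days, Pramef17, Pramel7 and Pramef8. E330014E10Rik had a log2 fold change of -0.25 at 4 days under the same filter, since another of its probes then stood for it. In the test against a fold of 2 the calls of Tet1, Tfcp2l1, Cyp26a1, Stra6 and Dppa2 over −Tx ES cells were lost. In KO/Y over +Tx ES cells the call of Tet1 (log2 fold change -1.001) was lost without +Tx array 2 (-0.9968), +Tx array 3 (-0.9894), KO/Y array 1 (-0.9756) or KO/Y array 2 (-0.9645). That of Dub3 (1.26) was lost without +Tx array 2 (1.25), KO/Y array 2 (1.24) or KO/Y array 3 (1.22).

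Over all genes, 389 and 168 were called higher and lower at 4 days, 1054 and 631 in KO/Y over −Tx, and 529 and 231 in KO/Y over +Tx ES cells. These became 154 and 52, 413 and 265, and 195 and 61 with normexp. They became 208 and 93, and 229 and 147 at 4 days and in KO/Y over +Tx with the filter on all arrays, which called 584 higher in KO/Y over −Tx. They became 170 and 31, 473 and 191, and 144 and 43 in the test against a fold of 2, and 2665 and 3286, 4594 and 5892, and 2702 and 3166 with no fold limit. With every probe on its own 265, 1015 and 406 were called lower. No paired analysis was possible because the arrays carry no replicate number in the sources used here. Signals near background limit the folds of Pramef17, Gm13128, Gm13109, D5Ertd577e and Stra6 over −Tx ES cells to bounds.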
